A study of Mus musculus with 16 samples.

Results

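The cells described here are 137 of 5777 forebrain cells of mouse embryos, taken as cortical radial glia. No RNA of 10 mitotic genes was counted in them. They are 2.37% of the cells (exact binomial 95% interval 1.99 to 2.80%). They were picked by their RNA. Fabp7, Aldoc, Sox9, Slc1a3 and Hopx together made up at least 0.35% of a cell's UMIs, which are RNA molecules told apart by a molecular barcode. Dlx1 and Dlx2 together gave at most 1 UMI, Eomes gave at most 1, and Top2a, Mki67, Ccnb1, Nusap1, Prc1, Kif11, Aurkb, Ccna2, Cenpf and Tpx2 gave 0. The levels of these genes therefore describe the choice and are no result. Without mitotic RNA means here 0 UMIs of the last 10 genes. The 50 other listed genes of G2 and mitosis gave 1033 UMIs, in 135 of the 137 cells.

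Radial glia line the ventricle of the developing cortex and are the stem cells of its neurons, and later of its astrocytes. They divide either into more radial glia or into intermediate progenitors, which are marked by the T-box factor Eomes and divide again into excitatory neurons. Notch signalling keeps radial glia undifferentiated through Hes factors, while the proneural factor Neurog2 starts the neuronal program.

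All cells came from the forebrain of wild-type CD1 mouse embryos at embryonic day 15.5, captured in droplets with the SureCell workflow of Illumina and Bio-Rad. The 16 samples share their labels and were deposited as 1 matrix whose cell names do not lead back to a sample, so the cells count as 1 sample. The labels give no sex, litter or number of embryos. The matrix holds 14498 genes, a median of 3258 UMIs per cell (1111 to 17398) and 0 mitochondrial genes.

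With 1 sample there is no replicate and no test. Levels are the UMIs of a gene in a class scaled to all UMIs of that class (CPM). Each ratio has an exact 95% interval that covers counting error only, not differences between embryos or libraries. A gene was measured in a comparison with at least 50 UMIs over both classes, and is called higher or lower at a 1.5-fold ratio. The cells stand in 2 runs in the matrix, which the labels do not name: 1363 UMIs of Y-linked genes fell in the first run of 3651 cells and 0 in the second of 2122. The first run held 78 of the radial glia without mitotic RNA (2.14%, 1.69 to 2.66%) and the second held 59 (2.78%, 2.12 to 3.57%). Values of both runs are given where they part, as log2 ratios, first run before second.

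The 137 cells held 423120 UMIs, with a median of 2851 UMIs (1183 to 9060) and 1625 genes per cell. Fabp7, a fatty acid binding protein of radial glia, gave 2639 UMIs in 134 of the cells, or 6237 CPM. It stood at 5977 CPM in run 1 and 6500.2 CPM in run 2. Aldoc, a glycolytic aldolase of glia, gave 467 UMIs in 112 cells (1104 CPM), and Sox9, a factor of neural stem cells, gave 402 in 111 cells (950.1 CPM). Slc1a3, a glutamate transporter, was counted in 88 cells (318 UMIs, 752 CPM) and Hopx, a homeodomain-only protein, in 50 (97 UMIs, 229 CPM). So most of the glial share came from Fabp7, and Hopx was seen in the smallest number of cells.

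Genes outside the rule were used to check the name. Tnc, which encodes the matrix protein tenascin C, gave 119 UMIs in 45 cells. Its level was 281 CPM, against 37.9 CPM in the other 5640 cells (7.43-fold, 6.08 to 9.02). Thinned to 1000 UMIs per cell, 15.3% of the 137 cells held a Tnc UMI, against 1.99% of Eomes cells. The part of free RNA in these shares was not tested. Of 22 radial glial marker genes outside the rule, 20 were higher than in the other cells and 0 lower, where 22.7% of all 11307 measured genes were higher and 21.8% lower. Of the 9 microglia markers 8 were at 0, as were 9 of the 10 endothelial and mural markers and 5 of the 8 meningeal markers. Of the 2 erythroid genes in the matrix Alas2 was at 0, and the globin gene Hbb-y gave 3 UMIs. The radial glial name therefore holds by markers that the rule did not use.

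Patterning genes were used to check the cortical position. After thinning, 75.9% of the 137 cells held a UMI of Emx1, Emx2, Pax6, Lhx2, Dmrta2, Dmrt3 or Tfap2c, factors of the dorsal forebrain. The share was 80.8% in Eomes cells, 76.5% in 17 glial cells that met the same limits but held at least 2 Dlx UMIs, and 20.03% in 769 interneurons, taken as cells with at least 2 UMIs each of Dlx1 or Dlx2 and of Gad1 or Gad2. A UMI of Gsx2, Dlx5, Dlx6os1, Gad1, Gad2, Nkx2-1, Olig1 or Olig2, genes of the ventral forebrain, was held by 16.1% of the 137 cells, against 9.87% of Eomes cells, 8.42% of 2519 excitatory neurons and 90.1% of interneurons, for which the Gad genes restate the choice. Excitatory neurons were taken as cells with at least 3 UMIs of Neurod6 and Neurod2 and 0 of Dlx1 and Dlx2. The ventral share differed between the runs, at 23.1% in the first and 6.78% in the second. Median depths were 2851 UMIs for the 137 cells, 3020 for Eomes cells, 3764 for excitatory neurons and 2765 for interneurons. Most of the cells thus carried dorsal factors, as did the Dlx glial cells, and a minority held RNA of ventral genes, so the dorsal share alone does not mark the cells as cortical.

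A few cells held RNA of other lineages. Of the 140 UMIs of the ventral genes, 89 lay in 4 cells. Of 94 UMIs of oligodendrocyte precursor markers such as Olig1 and Pdgfra, 86 lay in 3 cells, 1 in run 1 and 2 in run 2. Olig1 is in both the ventral and the precursor list, so its UMIs count in both totals. Likewise, 69 of 76 UMIs of Rspo1, Rspo2, Rspo3, Wnt8b, Wnt3a and Lmx1a, genes of the cortical hem at the medial margin, lay in 4 cells, 3 of them in the second run. The summed level of 15 neuronal genes had a median of 1447 CPM per cell and a highest value of 12941 CPM, and 2 cells exceeded the median of the excitatory neurons (10817 CPM). The part of doublets and of free RNA in these values was not tested.

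The limits of the rule cut through a continuous range. Just outside the glial limit lay 10 cells with a share of 0.30 to 0.35%, with Vim at 2397 CPM and Tubb3, a neuronal tubulin, at 299.6 CPM. Just inside lay 16 cells at 0.35 to 0.40%, with Vim at 2826 CPM and Tubb3 at 642 CPM. Of the 137 cells, 13 had 1 Eomes UMI, and 9 cells with 2 were left out. Another 15 of the 137 had 1 Dlx UMI, and 3 cells with 2 were left out. Cells that met the other limits but had mitotic RNA numbered 72 at 1 UMI, 45 at 2 UMIs and 24 at 3 UMIs.

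**Figure D1:**
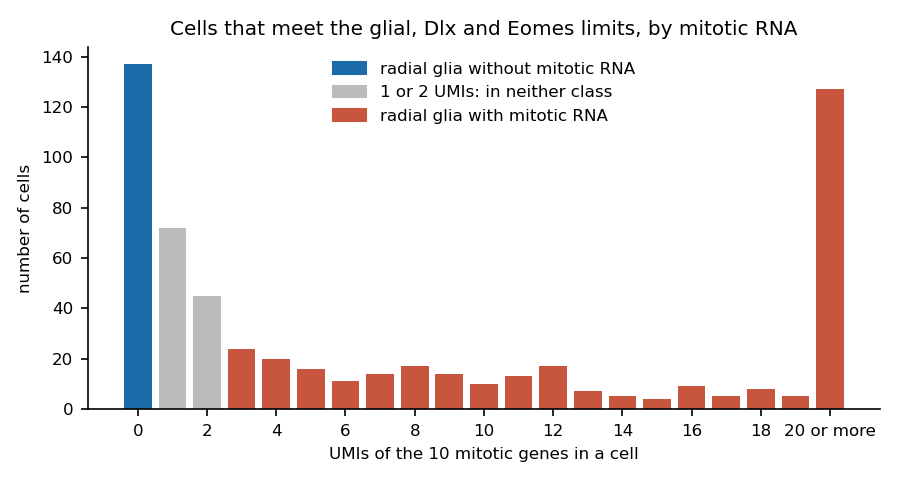
Number of cells (vertical axis) by UMIs of the 10 mitotic genes (horizontal axis) among cells that meet the glial, Dlx and Eomes limits; blue is 0 UMIs, grey 1 or 2, red 3 or more. The 137 cells at 0 UMIs form the highest bar, counts decline through 72 at 1 UMI and 45 at 2 UMIs, and 127 cells hold 20 or more.

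The first comparison set the 137 cells against 326 mitotic radial glia, which met the same glial, Dlx and Eomes limits and held at least 3 UMIs of the mitotic genes. It shows what differs between radial glia outside and inside the late cell cycle. The classes differ by the rule in mitotic RNA, so cell cycle genes restate the choice. Mitotic radial glia were deeper, at a median of 4196 UMIs against 2851 in the 137 cells. Of 7027 measured genes, 9.81% were higher and 11.8% lower in the cells without mitotic RNA, with a median log2 ratio of 0.02.

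All 50 measured genes of G2 and mitosis outside the rule were lower, with a median log2 ratio of -3.66. Ube2c, a ubiquitin ligase subunit of mitotic exit, gave 9 UMIs in the 137 cells and 971 in mitotic radial glia. Spc25, a kinetochore subunit, gave 2 and 368, and Plk1, the polo kinase of mitosis, gave 2 and 279. Fam64a gave 0 UMIs in the 137 cells and 339 in mitotic radial glia. Absence of the 10 rule genes thus went with lower levels of the whole list.

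Genes of S phase were mostly lower. Of 36 measured, 21 were lower and 2 higher in the 137 cells, with a median log2 ratio of -0.76. Rrm2, the small subunit of ribonucleotide reductase, stood at 116 CPM in the 137 cells and 416 CPM in mitotic radial glia (0.278-fold, 0.204 to 0.373). E2f8, a repressor of the E2F family that peaks late, gave 3 and 130 UMIs (0.0785-fold, 0.016 to 0.235). Ung, a uracil glycosylase, went the other way, at 116 CPM in the 137 cells and 46.5 CPM in mitotic radial glia (2.49-fold, 1.69 to 3.65). Rrm2 and Ung, and Mcm2 and Pcna below, were named after their values were seen.

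The genes that load and run the replication fork were nearly level. Of Mcm2 to Mcm7, the helicase that opens DNA, Pcna, the clamp of the polymerase, and Lig1, the ligase of the lagging strand, 0 of 8 were higher and 2 lower. Mcm2 gave 107 UMIs (253 CPM) in the 137 cells and 345 UMIs (240 CPM) in mitotic radial glia, a ratio of 1.06 (0.842 to 1.31). Lig1 gave 116 CPM in the 137 cells and 222 CPM in mitotic radial glia (0.523-fold, 0.379 to 0.708). Pcna stood at 168 CPM and 269 CPM in the same order (0.623-fold, 0.477 to 0.804). The median log2 ratio of the 8 genes was 0.28 in run 1 and -0.57 in run 2, so their level relative to mitotic radial glia was not stable between runs.

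The inhibitors of cyclin-dependent kinases did not all move alike. Cdkn2c gave 2 UMIs in the 137 cells and 177 in mitotic radial glia. Cdkn2d was lower as well, at 14.2 and 67.4 CPM in the same order, and Cdkn1b was at 158 and 217 CPM. Cdkn1a was at 9.45 and 1.39 CPM, with 4 UMIs in the 137 cells. Cdkn2d, Cdkn1b and Cdkn1a were named after their values were seen. Cdkn1c, an inhibitor known from cells that leave the cycle, gave 25 UMIs in 16 of the 137 cells and 30 UMIs in 23 mitotic radial glia (2.84-fold, 1.60 to 4.99; named after its values were seen). In all, 1 of 20 genes of G1 control was higher and 5 lower.

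Among lists with at least 10 measured genes, the neurogenic genes had the largest share called higher, 7 of 15 measured with 0 lower and a median log2 ratio of 0.54. Neurog2 gave 107 UMIs in 34 of the 137 cells (253 CPM) and 98 UMIs in 48 mitotic radial glia (68.0 CPM). That is 3.72-fold (2.80 to 4.94), with log2 ratios of 1.55 and 2.17 in the runs. Btg2, an antiproliferative gene of progenitors that will make neurons, stood at 343 and 156 CPM (2.19-fold, 1.77 to 2.71). Both were higher in the 137 cells in each run. Among 13 neuronal genes, 3 were higher and 0 lower, with a median log2 ratio of 0.33.

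Within the Notch pathway 4 of 18 genes were higher and 0 lower, while the median log2 ratio was -0.01. Dll1, a ligand, gave 40 UMIs in 14 of the 137 cells and 33 UMIs in 25 mitotic radial glia (4.13-fold, 2.54 to 6.75), with 9 UMIs in a single cell. Hes5, a target that holds cells in the progenitor state, stood at 700 CPM in the 137 cells and 396 CPM in mitotic radial glia (1.76-fold, 1.53 to 2.03). Hes6, an antagonist of Hes1, was at 184 and 70.8 CPM (2.60-fold, 1.91 to 3.53). The other main target, Hes1, was at 494 CPM in the 137 cells and 444 CPM in mitotic radial glia (1.11-fold, 0.946 to 1.30). The ligand, Hes5 and Hes6 were higher without mitotic RNA, and Hes1 differed by less than 1.5-fold. The 3 Hes genes were named after their values were seen.

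The promoter of Hes5 is shown because it holds the binding motif of RBPJ, the DNA-binding factor of the Notch pathway, spelled GTGGGAA, or TTCCCAC on the other strand. The 250 bases before the start lie at chr4:154960673-154960922 on the plus strand (RefSeq, GRCm38.p6), just outside the gene, and the capitals mark both matches, 226 and 83 bases before the start.
Hes5: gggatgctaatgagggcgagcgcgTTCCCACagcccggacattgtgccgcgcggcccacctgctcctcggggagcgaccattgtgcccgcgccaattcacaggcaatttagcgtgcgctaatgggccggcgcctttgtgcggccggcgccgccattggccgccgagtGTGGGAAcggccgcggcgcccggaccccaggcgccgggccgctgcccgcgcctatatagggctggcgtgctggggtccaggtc
The motif is in 5.42% of 32851 such windows, and in 1 of the 6 windows found for 8 Notch genes. A match is a run of letters and not a shown binding site.

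Glial genes of later stages were also higher in part. In the astrocyte list 4 of 17 were higher and 0 lower. Apoe, the lipid carrier of astrocytes, gave 63 UMIs in 26 of the 137 cells (149 CPM) and 72 in 54 mitotic radial glia (49.996 CPM). That is 2.98-fold (2.09 to 4.24), with log2 ratios of 1.96 and 1.34 in the runs. Of the 63 UMIs in the 137 cells, 23 lay in the 7 cells with oligodendrocyte precursor or hem RNA, and without those cells the log2 ratio was 1.04, against 1.57 with them. The growth factor gene Ptn, in a list of genes described in outer radial glia mainly of human cortex, was at 102 CPM in the 137 cells and 48.6 CPM in mitotic radial glia (2.09-fold, 1.40 to 3.10). Acsbg1, an acyl-CoA synthetase of that list, was at 78.0 and 46.5 CPM (1.68-fold, 1.07 to 2.58). All 3 genes were higher in the 137 cells in each run, with Acsbg1 at 1.21 and 0.10.

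Other lists were mixed or level. Of 14 glycolytic genes 2 were higher, Hk2, a hexokinase, at 73.3 CPM in the 137 cells and 31.2 CPM in mitotic radial glia (2.34-fold, 1.43 to 3.79), and Aldoa, an aldolase, at 435 and 224 CPM (1.94-fold, 1.61 to 2.34). Of 11 genes of serine, glycine and one-carbon metabolism 3 were lower, among them Mthfd2 at 23.6 and 53.5 CPM (0.442-fold, 0.204 to 0.858). Of 5 genes of the early cortical program 3 were lower and 1 higher. Dach1, the higher one, was at 161 CPM in the 137 cells and 96.5 CPM in mitotic radial glia (1.67-fold, 1.23 to 2.24; named after its values were seen). Hmga2, a chromatin protein of young stem cells, was at 28.4 CPM in the 137 cells and 73.6 CPM in mitotic radial glia (0.385-fold, 0.193 to 0.702). Igf2bp1, an RNA-binding protein of the same stage, was at 61.4 and 108 CPM (0.567-fold, 0.359 to 0.863). None of the 17 junction and polarity genes and none of the 13 Hippo genes was called in either direction.

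Matrix and signalling genes gave single differences. Gpc6, a glypican, was at 25.997 CPM in the 137 cells and 72.9 CPM in mitotic radial glia (0.357-fold, 0.173 to 0.664). Veph1, a radial glial gene, was at 33.1 and 79.2 CPM (0.418-fold, 0.221 to 0.730). Wnt7b, a Wnt ligand, was at 139 CPM in the 137 cells and 57.6 CPM in mitotic radial glia (2.42-fold, 1.70 to 3.42). Both lower genes were lower in each run, and Wnt7b was higher in each.

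In the list of immediate early and heat shock genes 4 of 12 were higher and 0 lower, with a median log2 ratio of 0.21, and Fos and Egr1 parted between the runs. Fos, an early response factor, was at 999.7 CPM in the 137 cells and 474 CPM in mitotic radial glia (2.11-fold, 1.86 to 2.38), yet its log2 ratio was -0.07 in run 1 and 1.38 in run 2. Its level in the 137 cells was 310 CPM in run 1 and 1696 CPM in run 2. Egr1 behaved alike, at 558 and 233 CPM overall (2.40-fold, 2.02 to 2.84), with log2 ratios of 0.33 and 1.56. Only in run 2 were both genes past the 1.5-fold limit. Olig1 (50 UMIs in 5 of the 137 cells) and Rspo3 (35 UMIs in 8) also had ratios above 4, and they rest on the few cells named above.

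**Figure D2:**
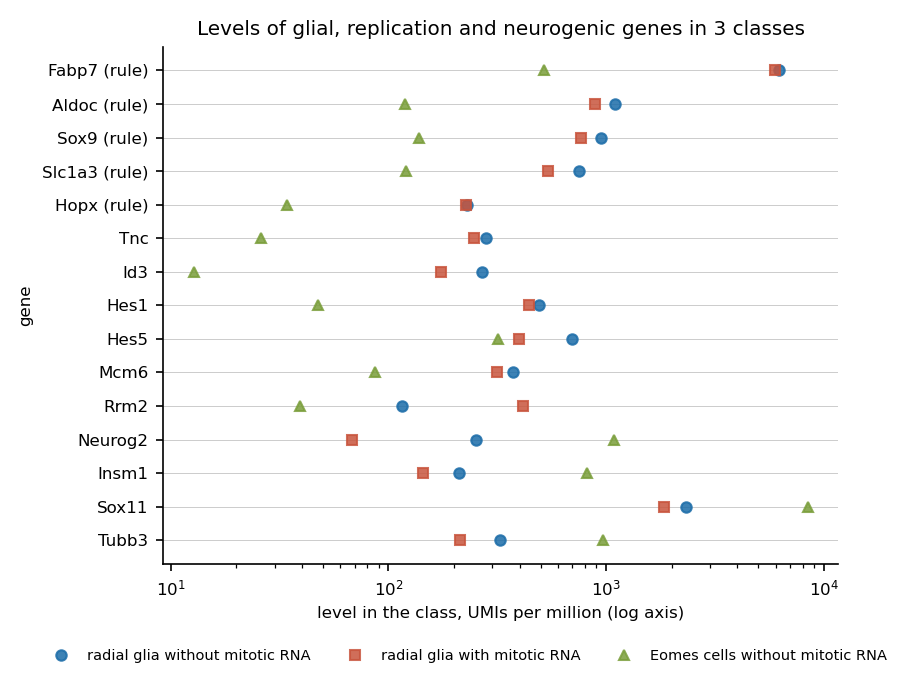
Levels in CPM (horizontal log axis) of 15 genes in radial glia without mitotic RNA (circles), mitotic radial glia (squares) and Eomes cells (triangles); the 5 genes marked as rule chose the cells. Tnc, Id3 and Hes1 lie far right of the Eomes cells in both radial glial classes, and Neurog2 lies between mitotic radial glia (68.0) and Eomes cells (1085) at 253.

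The second comparison set the 137 cells against 598 Eomes cells, which held at least 2 Eomes UMIs and likewise 0 mitotic UMIs. It shows what separates radial glia from intermediate progenitors and their young progeny when neither holds RNA of the 10 mitotic genes. Depth was close, with medians of 2851 UMIs in the 137 cells and 3020 in Eomes cells. Of 7737 measured genes, 17.2% were higher and 20.1% lower in the radial glia, with a median log2 ratio of -0.02.

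Most radial glial and glial genes measured were higher. Of 21 radial glial markers outside the rule 16 were higher and 0 lower, with a median log2 ratio of 2.22. Tnc stood at 281 CPM in the 137 cells and 25.96 CPM in Eomes cells (10.8-fold, 7.78 to 15.3). Clu, a secreted chaperone of astrocytes, was at 175 CPM in the 137 cells and 11.8 CPM in Eomes cells (14.9-fold, 9.28 to 24.7). Of 17 astrocyte genes 11 were higher and 2 lower, and of 14 glial transport and coupling genes 9 were higher and 1 lower.

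Of 17 Notch pathway genes 6 were higher and 5 lower in the radial glia, with a median log2 ratio of 0.15. Notch2 was at 262 CPM in the 137 cells and 22.5 CPM in Eomes cells (11.6-fold, 8.19 to 16.8), and Hes1 at 494 and 47.5 CPM (10.4-fold, 8.13 to 13.4). Hes5 was at 700 and 318 CPM, a smaller ratio of 2.20 (1.91 to 2.53). The ligand Dll1 was lower, at 94.5 CPM in the 137 cells and 203 CPM in Eomes cells (0.466-fold, 0.328 to 0.646), as was Hes6 at 184 and 426 CPM (0.433-fold, 0.339 to 0.546). Hes5, Dll1 and Hes6 were named after their values were seen.

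Of 9 BMP and Id genes 3 were higher and 1 lower, with a median log2 ratio of -0.05. The Id genes among them encode inhibitors of proneural bHLH factors. Id3 was at 269 CPM in the 137 cells and 12.7 CPM in Eomes cells (21.2-fold, 13.7 to 33.8), and Id4 at 1026 and 143 CPM (7.15-fold, 6.15 to 8.32), while Id2 was at 407 and 504 CPM (0.807-fold, 0.682 to 0.949; named after its values were seen). Within the 137 cells Id3 stood at 89.3 CPM in run 1 and 451 CPM in run 2, yet its ratio to Eomes cells was high in both runs (3.18 and 4.90). Of 11 genes of the Hippo and Yap list 5 were higher and 3 lower, with a median log2 ratio of 0.14. Cyr61, a matrix protein induced by Yap, was at 470 CPM in the 137 cells and 30.9 CPM in Eomes cells (15.2-fold, 11.4 to 20.6). Yap1 itself was at 135 and 28.9 CPM (4.66-fold, 3.18 to 6.83). Id3, Id4, Cyr61 and Yap1 were higher in both runs.

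Proneural genes were lower. Of 21 neurogenic genes 19 were lower and 1 higher, with a median log2 ratio of -2.60. Neurog2 was at 253 CPM in the 137 cells and 1085 CPM in Eomes cells (0.233-fold, 0.190 to 0.283), and Neurod1, its target in young neurons, at 47.3 and 861 CPM (0.0549-fold, 0.0335 to 0.0851). Neurog1 gave 0 UMIs in the 137 cells and 188 in Eomes cells. Of 15 neuronal genes 11 were lower and 0 higher, with Dcx, a microtubule protein of migrating neurons, at 321 CPM in the 137 cells and 1222 CPM in Eomes cells.

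Replication genes were higher although both classes were chosen for 0 mitotic UMIs. Of 25 S phase genes 24 were higher and 0 lower, with a median log2 ratio of 1.77, and all 8 replication genes were higher (2.07). Uhrf1, which copies DNA methylation at forks, was at 132 CPM in the 137 cells and 11.8 CPM in Eomes cells (11.3-fold, 6.87 to 19.0). Mcm3 was at 229 and 31.8 CPM (7.20-fold, 5.21 to 10.02) and Ung at 116 and 11.8 CPM (9.85-fold, 5.93 to 16.8). Thinned to 1000 UMIs, 67.2% of the 137 cells held a UMI of the 8 replication genes (58.6 to 74.9%), against 69.9% of mitotic radial glia, 33.9% of Eomes cells and 25.3% of excitatory neurons. Unthinned shares were 86.9%, 94.5%, 61.9% and 57.2%. The excitatory neurons were chosen with no limit on Eomes or mitotic RNA, so dividing cells may be among them. Unthinned, 390 of these 2519 cells held at least 3 replication UMIs, and 1 cell held 29. The part of free RNA and of carried-over RNA in these shares was not tested.

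Lists of FGF, hedgehog, serine and lipid genes held more higher than lower members. All 5 measured genes of the FGF and EGF list were higher, among them the receptors Fgfr2 at 187 CPM in the 137 cells and 49.0 CPM in Eomes cells (3.81-fold, 2.80 to 5.17) and Fgfr3 at 194 and 63.7 CPM (3.04-fold, 2.28 to 4.04). In the hedgehog list 5 of 7 were higher and 1 lower, with Gas1, a co-receptor, at 409 and 94.0 CPM (4.35-fold, 3.52 to 5.37), and Gli3, the repressor that patterns the cortex, at 536 and 130 CPM (4.12-fold, 3.43 to 4.93). Phgdh, the first enzyme of serine synthesis, was at 92.2 CPM in the 137 cells and 13.7 CPM in Eomes cells (6.72-fold, 4.03 to 11.3), and 7 of 9 genes of its list were higher. Of 21 lipid genes 12 were higher and 1 lower. Ldha, lactate dehydrogenase, was at 870 CPM in the 137 cells and 317 CPM in Eomes cells (2.74-fold, 2.40 to 3.12). Sox2 and Sox3, stem cell factors, were 3.86-fold (3.25 to 4.59) and 5.84-fold (4.26 to 8.02) higher.

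**Figure D3:**
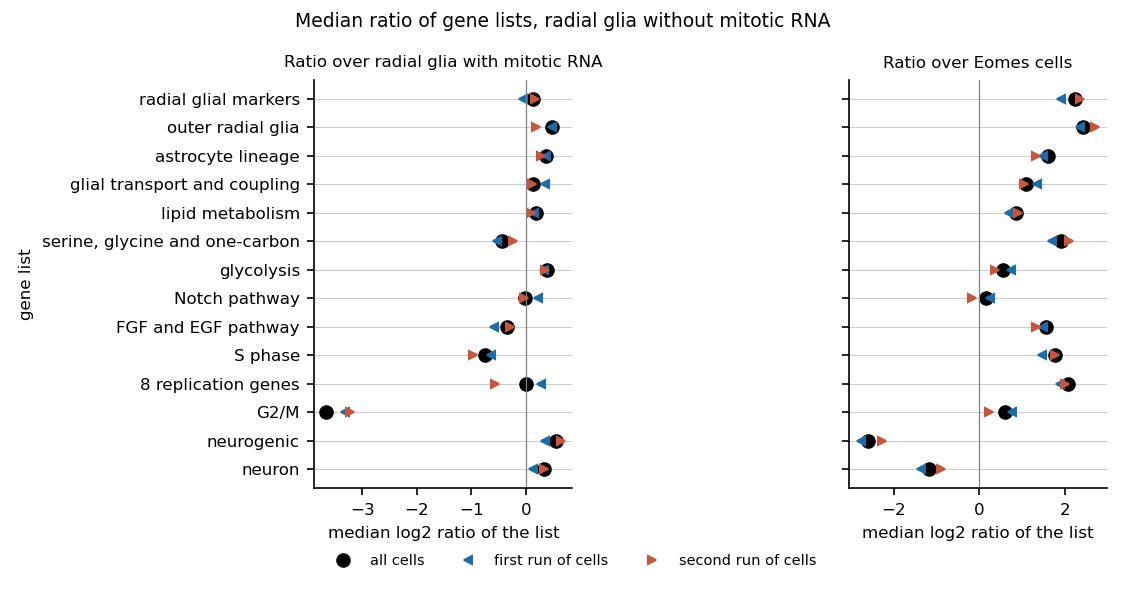
Median log2 ratio (horizontal axis) of 14 gene lists (vertical axis), radial glia without mitotic RNA over mitotic radial glia (left) and over Eomes cells (right); black circles are all cells and triangles the runs. Neurogenic genes lie right of 0 on the left (0.54) and left of 0 on the right (-2.60), and S phase genes lie at -0.76 on the left and 1.77 on the right.

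The third comparison set the 137 cells against 17 Dlx glial cells, which met the glial, Eomes and mitotic limits but held at least 2 UMIs of Dlx1 and Dlx2. It addresses the difference between radial glia chosen for low Dlx RNA and glial cells with RNA of the ganglionic eminences. With 56768 UMIs in 17 cells, 14 of them in the first run, intervals are wide, and values of the second run rest on 3 cells. Of 2348 measured genes, 21.7% were higher and 14.4% lower in the 137 cells, with a median log2 ratio of 0.06.

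Dorsal factors were higher in 6 of 7 measured cases, out of 12 listed. The 137 cells hold 423120 UMIs against 56768, so the minimum of UMIs favoured genes that are higher in them, and the count is no independent check. Summed over all 12 genes, the list stood at 2701 CPM in the 137 cells and 1251 CPM in Dlx glial cells. Neurog2 gave 107 UMIs in the 137 cells and 0 in the Dlx glial cells, at least 4.79-fold higher against a floor of 3 counts over that class. Lhx2, a selector of cortical identity, was at 825 CPM in the 137 cells and 388 CPM in Dlx glial cells (2.13-fold, 1.38 to 3.44). Against cells with at least 5 Dlx UMIs the log2 ratio of Lhx2 was 0.17, and 0.089 with every cell thinned to 1000 UMIs, both below the limit. The bound for Neurog2 was then a log2 ratio of at least 0.20, and in run 2 at least 0.15, since fewer cells set the floor. The share of cells with a dorsal UMI after thinning was however alike at these numbers, 75.9% of the 137 cells and 76.5% of the 17 (50.1 to 93.2%), whereas a ventral UMI was held by 16.1% and 47.1%.

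Neuronal RNA was lower in the 137 cells than in the Dlx glial cells. Of 8 neuronal genes 7 were lower and 0 higher, and of 10 neurogenic genes 7 were lower and 1 higher. Stmn2, a growth cone protein, was at 206 CPM in the 137 cells and 599 CPM in Dlx glial cells (0.343-fold, 0.229 to 0.526), lower in both runs. Sox11, a factor of young neurons, was at 2323 and 5285 CPM (0.440-fold, 0.386 to 0.502), with log2 ratios of -1.33 and 0.20 in the runs. The median log2 ratio of the neurogenic list was -0.99 overall and 0.18 in run 2. Hes1 was at 494 CPM in the 137 cells and 159 CPM in Dlx glial cells (3.12-fold, 1.61 to 6.91). Id4 was at 1026 and 370.0 CPM (2.77-fold, 1.79 to 4.53), and Mt1, a metallothionein, at 544 and 88.1 CPM (6.17-fold, 2.61 to 19.2). The last 3 were higher in both runs.

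Against all other 5640 cells, the genes with large ratios included several of mature glia. This comparison mixes every cell type of the forebrain. Slc6a11, a GABA transporter of astrocytes, gave 18 UMIs in 11 of the 137 cells (42.5 CPM), against 3.49 CPM in the other cells (12.2-fold, 6.85 to 20.6). Gdpd2, a glycerophosphodiesterase, was at 85.1 and 8.12 CPM (10.5-fold, 7.11 to 15.1), and Aldh1l1, a folate enzyme and astrocyte marker, at 111 and 11.1 CPM (10.01-fold, 7.16 to 13.7). Aldh1l1 lay in 14 of the 137 cells, with log2 ratios of 1.93 in run 1 and 4.29 in run 2. It stood at 86.1 CPM in mitotic radial glia and 159 CPM in Dlx glial cells, so it was not particular to the 137 cells. The summed glial transport list was at 1855 CPM in the 137 cells. That list was at 1651 CPM in mitotic radial glia and 1814 CPM in Dlx glial cells. Hey2, a Notch target, was at 40.2 CPM in the 137 cells and 4.81 CPM in the others (8.35-fold, 4.68 to 14.03), and Mlc1, an astrocyte membrane protein, at 116 and 16.3 CPM (7.09-fold, 5.15 to 9.59). Fgfbp3, an FGF carrier, was at 307 and 42.4 CPM (7.24-fold, 5.98 to 8.71). Hey2, Mlc1 and Fgfbp3 were each at least 2.46 higher on the log2 scale in both runs.

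On the lower side all 15 neuronal and all 9 interneuron genes were lower than in the other cells. Mapt, the axonal tau protein, was at 175 CPM in the 137 cells and 1158 CPM in the others (0.151-fold, 0.119 to 0.190). Lhx6, a factor of migrating interneurons, gave 2 UMIs in the 137 cells (0.0665-fold, 0.00804 to 0.240). Ttr, the main product of choroid plexus, gave 5 UMIs in the 137 cells and 14212 in the others, and Hbb-y, an embryonic globin, gave 3 and 7016. Both gave at most 1 UMI in any of the 137 cells.

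Within the 137 cells, 21 held at least 2 Neurog2 UMIs, 13 held 1 and 103 held 0. The 21 and the 103 were compared to see which genes go with Neurog2 among radial glia, with Neurog2 itself left out. Median depth was 2534 UMIs in the Neurog2-high cells and 2832 UMIs in cells with 0. By run, 9 and 12 of the Neurog2-high cells and 63 and 40 of the cells with 0 lay in run 1 and run 2. Of 1715 measured genes, 12.4% were higher and 16% lower in the Neurog2-high cells, with a median log2 ratio of -0.02.

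Neurogenic genes were higher in 6 of 8 measured cases and lower in 0. Insm1, a zinc finger factor that drives basal progenitors, gave 48 UMIs in 12 of the 21 Neurog2-high cells (718 CPM) and 25 UMIs in 16 of the 103 cells with 0 (80.9 CPM). That is 8.87-fold (5.36 to 15.01), with log2 ratios of 3.41 and 2.86 in the runs. Chd7, a chromatin remodeller, was at 344 and 162 CPM (2.12-fold, 1.24 to 3.55) and Sox4, a factor of young neurons, at 583 and 317 CPM (1.84-fold, 1.23 to 2.69). Elavl2, an RNA-binding protein of neurons, was 1.69-fold (0.942 to 2.90), so its interval holds 1. Sox11 at 1.42-fold (1.21 to 1.67) and Btg2 at 1.26-fold (0.808 to 1.92) stayed below the limit of 1.5-fold.

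Later neuronal factors lay in few cells, with a large part of their UMIs in 1 cell. Neurod2 gave 21 UMIs in 5 of the Neurog2-high cells, 13 of them in 1 cell (2.20-fold, 1.25 to 3.79). Neurod6 gave 31 UMIs in 9 cells, 12 of them in 1 cell (2.11-fold, 1.33 to 3.27). Both had a log2 ratio of -0.38 in the first run, and Neurod6 was at -0.33 once the 5% of all cells with the highest doublet scores were removed. The list median was 0.05 in run 1 and 1.25 in run 2, and Insm1 and Chd7 were past 1.5-fold in both runs.

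Of 7 Notch genes 2 were higher and 2 lower in the Neurog2-high cells. Hes6 was at 464 CPM in Neurog2-high cells and 136 CPM in cells with 0 (3.41-fold, 2.07 to 5.55), higher in both runs (1.68 and 1.90). Hes5 was at 1077 and 654 CPM (1.65-fold, 1.24 to 2.16), counted in 18 of the 21 and in 61 of the 103 cells, with log2 ratios of 1.44 and 0.13. Hes1 was at 329 CPM in Neurog2-high cells and 499 CPM in cells with 0 (0.660-fold, 0.402 to 1.04). The receptors Notch1 at 0.908-fold (0.554 to 1.43) and Notch2 at 0.956-fold (0.541 to 1.60) and the feedback gene Nrarp at 0.693-fold (0.344 to 1.28) were between the limits. Adam10, a protease that cuts Notch, was at 74.8 and 159 CPM (0.471-fold, 0.147 to 1.18). The intervals of these last 5 genes hold 1, so no difference was detectable at this depth.

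Dorsal and areal factors were partly higher in the Neurog2-high cells, 3 of 6 and 5 of 9 with 0 lower in either list. Both lists hold Lhx2 and Dmrta2, so the counts overlap and are not separate results. Lhx2 was at 1331 CPM in Neurog2-high cells and 667 CPM in cells with 0 (1.996-fold, 1.54 to 2.57), higher in both runs (0.95 and 1.13). Tfap2c, a factor of dorsal progenitors that make Eomes cells, was at 329 and 129 CPM (2.54-fold, 1.44 to 4.38). From other lists, Dach1 of the early cortical program was at 284 and 107 CPM (2.66-fold, 1.43 to 4.82). Cdon, a hedgehog co-receptor, was at 852 and 450.0 CPM (1.89-fold, 1.37 to 2.60). All 4 genes were higher in both runs.

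Among measured genes, glial and matrix lists held more lower than higher ones in the Neurog2-high cells. The cells with 0 hold 308896 UMIs against 66869, so the minimum of UMIs favoured genes that are higher in them. Summed over all genes, the matrix list stood at 2647 CPM in Neurog2-high cells and 3872 CPM in cells with 0. Radial glial markers stood at 11964 and 13639 CPM and glial transport genes at 1615 and 1887 CPM. The astrocyte list went the other way, at 6356 and 6012 CPM. Of 10 matrix genes 6 were lower and 1 higher (median log2 ratio -0.66), of 17 radial glial markers 5 and 1 (-0.15), of 10 astrocyte genes 4 and 2 (-0.55) and of 4 glial transport genes 1 and 0. In run 1 the medians were -0.19 for matrix genes, 0.13 for radial glial markers and 0.039 for astrocyte genes, so the last 2 lists were not lower there. Over the 4 matrix genes that reached 50 UMIs in run 1 alone, the median was 0.0099. Tnc gave 5 UMIs in the 21 Neurog2-high cells (74.8 CPM) and 105 in the 103 cells with 0 (340 CPM), or 0.220-fold (0.070 to 0.530). Apoe gave 2 and 55 UMIs (0.168-fold, 0.0198 to 0.636), and Cst3, a protease inhibitor of glia, was at 194 and 693 CPM (0.281-fold, 0.147 to 0.490). Ptprz1, a phosphatase of glial progenitors, was at 359 and 728 CPM (0.493-fold, 0.309 to 0.752), and Mest, an imprinted hydrolase, at 165 and 864 CPM (0.190-fold, 0.0939 to 0.346). All 5 were lower in both runs, while the log2 ratio of Ptprz1 was 0.05 after thinning every cell to 1000 UMIs. Id3 gave 4 UMIs in Neurog2-high cells and 95 in cells with 0 (0.195-fold, 0.0519 to 0.515), with log2 ratios of 0.45 and -4.64, so its difference lies in the second run.

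Replication genes were lower as well. All 9 measured S phase genes and 6 of 7 replication genes were lower in the Neurog2-high cells, where Mcm5 gave 1 UMI, against 77 in the cells with 0 (0.060-fold, 0.0015 to 0.344). Only 9 of the 40 listed S phase genes were measured. The cells with 0 hold 308896 UMIs against 66869, so the minimum of UMIs favoured genes that are higher in them. Summed over all 40 genes, the list stood at 1525 CPM in Neurog2-high cells and 4034 CPM in cells with 0. Tipin, of the fork protection complex, was at 74.8 and 288 CPM (0.260-fold, 0.0823 to 0.629). The median log2 ratio was -1.52 for the S phase genes and -1.21 for the replication genes, and -0.72 and -0.35 when the cells with 1 Neurog2 UMI were counted as high. At least 3 replication UMIs were held by 7 of the 21 Neurog2-high cells (33.3%), 10 of the 13 cells with 1 Neurog2 UMI and 66 of the 103 with 0 (64.1%). Thinned to 1000 UMIs, any replication UMI was held by 52.4% of Neurog2-high cells (29.8 to 74.3%) and 68.9% of cells with 0 (59.1 to 77.7%), intervals that overlap.

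**Figure D4:**
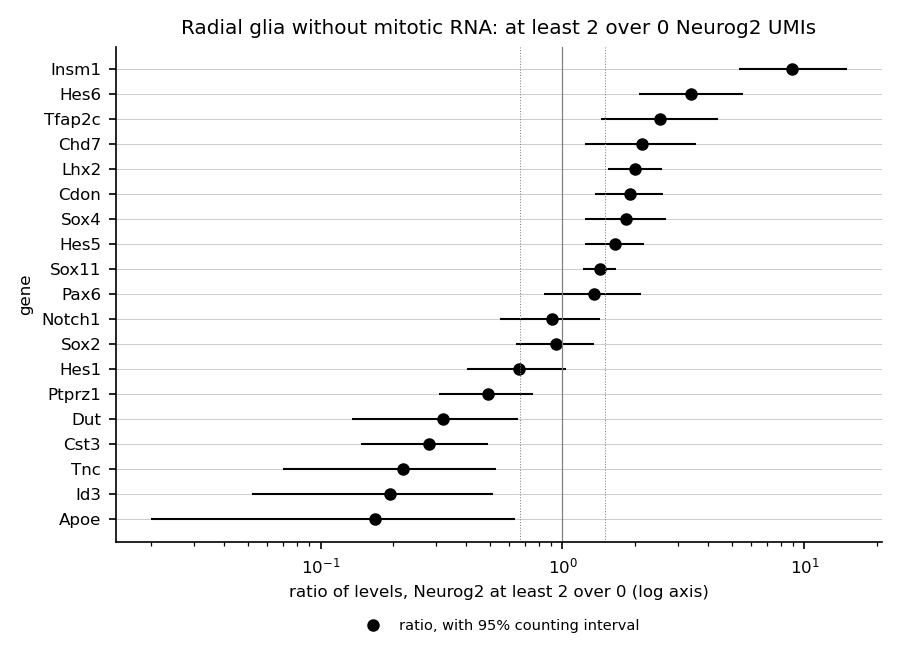
Ratio of levels (horizontal log axis) of 19 genes (vertical axis), cells with at least 2 Neurog2 UMIs over cells with 0; points are ratios, bars 95% counting intervals, dotted lines the 1.5-fold limits. Insm1 (8.87) and Hes6 (3.41) lie farthest right, Hes5 (1.65) lies right of 1 and Hes1 (0.660) left of it, and Tnc, Id3 and Apoe lie farthest left.

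The 8 replication genes gave a median of 5 UMIs per cell and at most 24. At least 3 UMIs were held by 83 of the 137 cells, 1 or 2 by 36 and 0 by 18. The 83 and the 18 were compared with these 8 genes left out. Median depth was 2888 UMIs in the replication-high cells and 2165 UMIs in cells with 0, and a shallower cell holds 0 more easily. The 18 cells, 11 in run 1 and 7 in run 2, held 45319 UMIs. Of 1340 measured genes, 20.2% were higher and 12.5% lower in the replication-high cells, with a median log2 ratio of 0.09.

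Mcm5 and Mcm6 are shown by their promoters, since both hold the E2F motif TTTGGCGC (GCGCCAAA on the other strand), which is bound by factors that switch on S phase genes. The windows are the 250 bases before the start in RefSeq on GRCm38.p6, outside the genes, at chr8:75109259-75109508 on the plus strand for Mcm5 and chr1:128359706-128359955 on the minus strand for Mcm6. Capitals mark the matches, 149 bases before the start in Mcm5, and 110 and 47 bases in Mcm6.
Mcm5: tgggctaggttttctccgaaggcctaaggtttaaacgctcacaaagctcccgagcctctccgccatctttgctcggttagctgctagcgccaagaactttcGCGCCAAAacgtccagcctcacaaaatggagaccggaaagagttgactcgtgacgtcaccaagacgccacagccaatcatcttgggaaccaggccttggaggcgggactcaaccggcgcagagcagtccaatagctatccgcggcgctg
Mcm6: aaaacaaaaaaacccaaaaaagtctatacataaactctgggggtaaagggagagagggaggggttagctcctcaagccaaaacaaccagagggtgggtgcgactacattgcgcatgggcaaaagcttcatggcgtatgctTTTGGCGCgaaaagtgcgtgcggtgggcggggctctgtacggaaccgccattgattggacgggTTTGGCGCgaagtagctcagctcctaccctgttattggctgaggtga
The motif is in 0.417% of 32851 such windows and in 2 of the 7 found for the 8 replication genes.

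All 8 other S phase genes that were measured were higher in the replication-high cells, with a median log2 ratio of 1.66 in all cells, 1.66 in run 1 and 0.64 in run 2. Rrm1, the large subunit of ribonucleotide reductase, gave 60 UMIs in the 83 cells and 2 in the 18 cells (5.10-fold, 1.35 to 43.1). Nasp, a histone chaperone, was at 585 CPM in replication-high cells and 154 CPM in cells with 0 (3.79-fold, 1.80 to 9.58). Dnmt1, the maintenance methyltransferase, was at 304 and 88.3 CPM (3.44-fold, 1.29 to 12.9; named after its values were seen). All 3 were higher in both runs. Only 8 of the 40 listed S phase genes were measured, and the classes hold 266473 and 45319 UMIs. A gene thus reached the minimum mostly through the replication-high cells, so the count of 8 is no independent check of the split. Summed over all 40 genes, the list stood at 4864 CPM in replication-high cells and 1302 CPM in cells with 0.

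Among the genes with the largest ratios were Hnrnpab and several ribosomal protein genes. Hnrnpab, an RNA-binding protein, was at 1644 CPM in replication-high cells and 838 CPM in cells with 0 (1.96-fold, 1.41 to 2.81). The ribosomal protein genes Rps2 (1.96-fold, 1.30 to 3.08), Rps15 (1.90-fold, 1.43 to 2.55), Rps16 (1.89-fold, 1.19 to 3.15) and Rplp0 (1.83-fold, 1.34 to 2.56) were higher in both runs. Such genes have near-identical pseudogene copies, and the labels do not say how the counting treated shared reads. Cdk4, the kinase of G1, was at 1062 and 662 CPM (1.60-fold, 1.10 to 2.42), and Pkm, pyruvate kinase, at 1115 and 618 CPM (1.80-fold, 1.22 to 2.76). Of 6 glycolytic genes 2 were higher and 1 lower, with a median log2 ratio of -0.14. Among signalling genes Hes1 was at 484 CPM in replication-high cells and 221 CPM in cells with 0 (2.19-fold, 1.16 to 4.68), with a log2 ratio of -0.14 in place of 1.13 when the glial limit was set at 0.25%. Fgfr1, an FGF receptor, was at 255 and 88.3 CPM (2.89-fold, 1.08 to 10.9). Hes5 differed little, at 630.5 and 706 CPM (0.893-fold, 0.609 to 1.35; named after its values were seen).

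Glial and matrix lists held more lower than higher genes in the replication-high cells. Of 10 astrocyte genes 4 were lower and 0 higher, of 6 matrix genes 4 and 0, and of 17 radial glial markers 5 were lower and 1 higher, with a median log2 ratio of -0.34 in run 1 and 0.12 in run 2 for the markers. Apoe gave 33 UMIs in 14 of the 83 cells (124 CPM) and 23 UMIs in 6 of the 18 cells (508 CPM), or 0.244-fold (0.139 to 0.435). Id3 was at 221 and 816 CPM (0.271-fold, 0.177 to 0.421), Sparc, a matrix protein, at 259 and 728 CPM (0.356-fold, 0.232 to 0.556), and Ttyh1, a glial channel, at 364 and 728 CPM (0.4999-fold, 0.334 to 0.766). Dbi, an acyl-CoA binding protein, was at 2338 CPM in replication-high cells and 3751 CPM in cells with 0 (0.623-fold, 0.525 to 0.743). Scd2, a fatty acid desaturase, was at 1539 and 2449 CPM (0.628-fold, 0.508 to 0.782). These 6 genes were lower in both runs.

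The level of some of them in the 18 cells rests on 4 cells with oligodendrocyte precursor or hem RNA, which held 31 of the 37 Id3 UMIs, 12 of the 23 Apoe UMIs, 22 of the 33 Sparc UMIs and 70 of the 170 Dbi UMIs there. Without the cells of this kind in both classes, Id3 stood at 233 CPM in replication-high cells and 193 CPM in cells with 0, a log2 ratio of 0.27 in place of -1.88. Sparc then had a log2 ratio of -0.49 in place of -1.49, and Dbi one of -0.51 in place of -0.68, so both were still lower but by less than 1.5-fold. Apoe gave 22 UMIs (86.8 CPM) in replication-high cells and 11 UMIs (354 CPM) in cells with 0, too few to count as measured. Id3, Sparc and Dbi were thus called lower in replication-high cells only with these cells included. Ptprz1 was lower overall (0.517-fold, 0.376 to 0.721), with log2 ratios of -1.89 and 0.39 in the runs.

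Apoe was thus lower in both the Neurog2-high and the replication-high cells than in the cells with 0 of either, though the splits share cells. No cell with precursor or hem RNA was among the Neurog2-high cells, and 7 were among the cells with 0 Neurog2, where they held 31 of 95 Id3 UMIs and 23 of 55 Apoe UMIs. Without them the log2 ratio of Id3 in the Neurog2 split was -1.96. Tnc was 0.220-fold in the Neurog2 split and 0.790-fold (0.464 to 1.42) in the replication split. The difference between the splits was not tested.

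**Figure D5:**
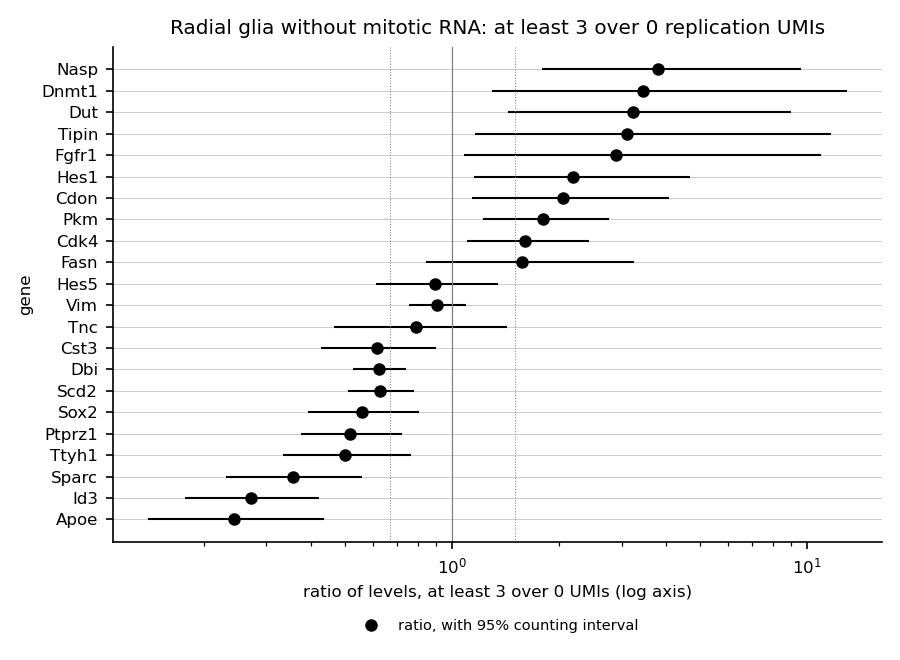
Ratio of levels (horizontal log axis) of 22 genes (vertical axis), cells with at least 3 UMIs of the 8 replication genes over cells with 0; points are ratios, bars 95% counting intervals, dotted lines the 1.5-fold limits. Nasp (3.79) and Dnmt1 (3.44) lie farthest right, Hes5 (0.893) lies near 1, and Id3 (0.271) and Apoe (0.244) lie farthest left, with Id3 right of 1 once cells with precursor or hem RNA are removed (log2 ratio 0.27, not drawn).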

How the data were processed

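Single-cell UMI counts of forebrain cells from 16 samples of wild-type CD1 embryos were deposited by the authors as 1 matrix of 14498 genes by 5777 cells. The values are whole-number counts with no scaling, as the matrix itself shows, and the submitters' processing notes name mm10 as the build. How reads were aligned and counted, how cells were filtered and what became of multi-mapping reads is not given in the sources used here. Cells are named by running numbers, so barcodes shared between libraries could not be counted, and the runs of cells were read from their order and their Y-linked UMIs.

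The cells and gene lists described were chosen with earlier results of these data known. UMIs were summed per class, scaled to CPM, and compared by ratio with an exact conditional binomial 95% interval. A class at 0 was set to a floor of 3 counts. Intervals and floors cover counting error only. Named genes were the 2 of largest ratio of any list in which 1 in 3 or more measured genes were called in that direction, the 1 of largest ratio of other lists, and up to 10 genes per direction with at least 200 UMIs. In the Neurog2 split all measured Notch and neurogenic genes were named too. Other genes were named after their values were seen, and are marked so or stand as follow-up of a gene named in another comparison. Cells were thinned once to 1000 UMIs with a fixed seed. The doublet caller Scrublet, run through scanpy, marked 0 of 5777 cells and so did not work here. Doublets were therefore kept, and the 289 cells (5%) with the highest scores, 5 of them among the 137, were removed as an alternative. The comparison was tested on simulated data with known ratios. Alternatives were the glial share, each run, the UMI minimum, the scaling, equal weight per cell, thinning, the fold limit, ventral RNA and the limits of each class. Median depth was 3258 UMIs per cell. Analyses used python 3.11.15, numpy 2.4.6, pandas 2.3.3, scipy 1.17.1 and scanpy 1.11.5. RefSeq promoter windows are on GRCm38.p6, the patch release of the same build as mm10. Some genes that the rule names are not reported here.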

Additional observations from a re-analysis of the deposited data

How the results depend on the processing

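No paired analysis was possible because all samples stand in 1 matrix with no map from cells to samples, and no replicate could be left out for the same reason. Scaling by the median of ratios, equal weight per cell and the other class limits moved no count of called genes by over 1.5 times. With a 2-fold limit, genes higher and lower numbered 124 and 356 over mitotic radial glia, 582 and 680 over Eomes cells, 228 and 96 over Dlx glial cells, 1310 and 1337 over all other cells, 45 and 128 in the Neurog2 split and 111 and 40 in the replication split. With at least 10 UMIs per gene, which admits many genes of few counts, they were 1787 and 1518 over mitotic radial glia, 1860 and 1743 over Dlx glial cells, 1567 and 1837 in the Neurog2 split and 1736 and 1504 in the replication split, with 2561 higher over Eomes cells. Thinned to 1000 UMIs per cell, which leaves fewer genes measured, they were 168 and 308 over mitotic radial glia, 510 and 935 over Eomes cells, 115 and 59 over Dlx glial cells, 40 and 50 in the Neurog2 split and 58 and 26 in the replication split, and in the Neurog2 split Ptprz1 turned to a log2 ratio of 0.046 and was the 1 matrix gene still measured. In run 1 they were 199 and 138 over Dlx glial cells, 91 and 156 in the Neurog2 split and 124 and 56 in the replication split, with 832 higher over Eomes cells, the matrix median of the Neurog2 split turned to 0.0099, and over mitotic radial glia Fos turned to -0.071 and Id3 to -0.41. In run 2 they were 214 and 151 over Dlx glial cells, 68 and 91 in the Neurog2 split and 132 and 50 in the replication split, with 416 higher over mitotic radial glia. There Ptprz1 turned to 0.39 in the replication split, and over Dlx glial cells Sox11 turned to 0.20 and the neurogenic median to 0.18. With a glial share of 0.5% they were 304 and 212 over Dlx glial cells, 130 and 171 in the Neurog2 split and 169 and 85 in the replication split, and with 0.25% Hes1 turned to -0.14 in the replication split. Without members holding ventral RNA there were 330 higher over Dlx glial cells, 133 higher and 167 lower in the Neurog2 split and 104 lower in the replication split. Without the highest doublet scores Neurod6 turned to -0.33 in the Neurog2 split. Without members holding precursor or hem RNA, an alternative chosen after seeing the data, Id3 turned to 0.27 in the replication split. Allowing 1 mitotic UMI gave 209 cells, and at full depth 95.6% of the 137 cells held a dorsal and 27.0% a ventral UMI. Apart from the filters and thinning, the cause was not tested. Of 1477 log2 ratios of named genes under an alternative, counted where the gene still had the minimum of UMIs, 1354 stayed inside the counting interval of the main value, 115 moved outside it and 8 turned. Run values printed for genes below that minimum, such as Neurod2, Neurod6 and Id3 in the Neurog2 split, are not among them. Depth limits the splits, since the 18 cells without replication UMIs hold 45319 UMIs and a gene at 0 there has a floor of 3 counts.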

Other observations

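Several gene lists not described above held called genes between the 137 radial glia without mitotic RNA and the 598 Eomes cells. Of all 7737 measured genes, 17.2% were higher and 20.1% lower, and some of the lists lay near these shares. Of 19 measured Wnt pathway genes 9 were higher and 4 lower in the radial glia, with a median log2 ratio of 0.15. Dkk3, a secreted protein of the Dickkopf family, was at 99.3 CPM in the 137 cells and 12.2 CPM in Eomes cells (8.11-fold, 4.83 to 13.9), and Sfrp2, a secreted Wnt modulator, at 144 and 22.04 CPM (6.54-fold, 4.38 to 9.84). Of 17 genes of G1 control 6 were higher and 3 lower, with a median log2 ratio of 0.08. The D-type cyclins Ccnd1 and Ccnd3, partners of Cdk4, were among the higher genes. Ccnd1 was at 213 CPM in the 137 cells and 58.3 CPM in Eomes cells (3.65-fold, 2.74 to 4.84), and Ccnd3 at 125 and 33.8 CPM (3.71-fold, 2.54 to 5.38). All 4 genes were higher in both runs.

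Of 16 genes that pattern cortical areas 5 were higher and 4 lower, with Sp8, a factor of frontal and medial cortex, at 63.8 CPM in the 137 cells and 11.8 CPM in Eomes cells (5.43-fold, 3.02 to 9.83). The 19 genes of apical junctions and polarity gave 5 in each direction, with Numbl, a relative of the Notch antagonist Numb, at 2 UMIs in the 137 cells and 120 in Eomes cells. Of 4 measured genes of the early cortical program 0 were higher and 1 lower. The median log2 ratio was -0.13 for the area genes, -0.05 for the junction genes and -0.30 for the early genes. It was -0.02 for all measured genes. Genes with large ratios outside these lists included Mfge8, a secreted glycoprotein, at 414 and 56.8 CPM (7.28-fold, 5.72 to 9.29), and Ddah1, a hydrolase of methylated arginine, at 929 CPM in the 137 cells and 138 CPM in Eomes cells (6.75-fold, 5.78 to 7.89). The intermediate filament gene Nes was at 383 and 58.8 CPM (6.51-fold, 5.11 to 8.32).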
